A study of Mus musculus with 6 samples.

Results

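The genes described here encode the proteins of the mitochondrial ribosome. They were taken by name, as every gene of the deposited expression table whose symbol reads Mrpl or Mrps followed by a number, leaving out pseudogenes, with at least 60 counts summed over all libraries. Of 34745 genes in the table, 78 symbols had that form and 77 were kept. The gene left out, Mrps36-ps3, had 0 counts, and the gene nearest to the minimum from above, Mrpl53, had 311. The rule uses names and summed counts, not the comparison, and all 77 were among the 12537 genes tested.

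RNA was sequenced from mouse monocytic myeloid-derived suppressor cells (M-MDSCs), immature myeloid cells that restrain T cells. The study's methods name C57BL/6 among the bought wild-type mice and state no strain for the mice bred to lack mTOR. There were 6 libraries, 3 from wild-type mice (WT) and 3 from Lyz-mTOR mice (mTOR-/-). In Lyz-mTOR mice both alleles of mTOR are floxed and Cre recombinase is expressed from the lysozyme locus, so that the deletion is restricted to myeloid cells that have switched this locus on, and the labels describe the other mice only as WT. The study obtained the cells from bone marrow grown with GM-CSF and IL-6 and sorted them as CD11b+ Ly6G- Ly6C high cells, and the age of the mice was not given. The labels do not tie each library to a mouse or culture of its own, so every p-value refers to the spread between these libraries, which may be technical in part.

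Mitochondria keep their own ribosome, distinct from the cytosolic ribosome, and use it to make the few respiratory chain and ATP synthase subunits encoded in mitochondrial DNA. Its large subunit (Mrpl genes, for the most part) joins amino acids into protein and its small subunit (Mrps genes, for the most part) reads the messenger RNA. All of its proteins are encoded in the nucleus, made in the cytosol and imported, where they assemble with ribosomal RNA of mitochondrial origin. Some descend from proteins of the bacterial ribosome and others arose in mitochondria. The kinase mTOR is known for promoting the synthesis of ribosomes and, in other cells, of nuclear-encoded mitochondrial proteins, and the comparison asked whether RNA of these genes differed in cells of mTOR-deficient mice.

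Library totals lay between 12317507 and 12903191 counts in the mTOR-/- group and between 14066578 and 14768126 in the WT group, and replicate 3 of the mTOR-/- group stood apart by its smaller number of genes with any count, 13889 against 14709 to 15120 in the other libraries. Mtor RNA did not check the labels, since its level in CPM (counts scaled to library size) was 69.7, 59.8 and 66.2 in WT replicates 1 to 3 and 72.0, 75.9 and 69.5 in mTOR-/- replicates 1 to 3 (edgeR adjusted p = 0.442), and how many of its reads came from the deleted exons cannot be seen in counts per gene. The study reports that it verified the depletion of mTOR in MDSCs, in data not used here. Lyz2, the lysozyme gene of the Cre locus, was lower in the mTOR-/- libraries, with a log2 fold change of -1.68 (edgeR adjusted p = 0.00255). The 6 monocyte markers summed to 1351 to 1795 CPM in mTOR-/- and 1439 to 1601 CPM in WT libraries, and 3 of 4 T cell markers (Cd3e, Cd4 and Cd8a) were at 0 throughout. Among those markers Ly6c2, part of the Ly6C antigen used in the sort, was lower, at 72.6 to 104 CPM in mTOR-/- and 116 to 226 CPM in WT libraries (edgeR adjusted p = 0.0426), and Csf1r and Cd14 were higher (log2 fold change 0.50 and 0.95, edgeR adjusted p = 0.0136 and 0.00128). The call was lost without single libraries for Ly6c2 (edgeR adjusted p up to 0.159, without WT replicate 3) and for Csf1r (up to 0.0935, without WT replicate 1). Markers of other cell types also differed between libraries. The 4 mast cell or basophil markers summed to 134 to 189 CPM in mTOR-/- against 677 to 839 CPM in WT libraries, the 10 neutrophil markers to 2381 to 2706 against 2122 to 2451 CPM (with Ly6g and S100a8 higher and Ltf and Ngp lower past the test, all but Ltf losing the call where single libraries were left out), the 3 dendritic cell markers to 135 to 205 against 53.3 to 123 CPM, the 4 macrophage markers to 534 to 650 against 659 to 737 CPM, the 3 B cell markers to 1.47 to 4.28 against 0.782 to 1.503 CPM, and the 3 erythroid markers to 0.535 to 1.24 against 2.99 to 5.63 CPM. Several sums came mostly from single genes, Cpa3 for mast cells or basophils, Mmp8 for neutrophils, Itgax for dendritic cells and Adgre1 for macrophages. Itgam was the largest part of the monocyte sum, at 647 to 1028 CPM in mTOR-/- and 870 to 961 CPM in WT libraries, and overlapped (-0.16). The similar monocyte sums therefore say little of the other markers in that list. Of these, Fcgr1 was also higher without overlap (0.41, edgeR adjusted p = 0.230), and Ccr2 overlapped (0.65). Of the others in the mast cell list, Mcpt8 was lower without overlap, and Ms4a2 and Fcer1a overlapped (log2 fold change -0.65 and 0.45). Flt3 and Zbtb46 overlapped too (-0.46 and 0.81). Among macrophage markers Vcam1 was higher without overlap (0.49), and C1qa and Mertk overlapped. In a bulk sample, fewer cells of a type and less RNA per cell cannot be told apart, and the part of these other cells in the values below was not tested.

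RNA of the mitochondrial ribosomal protein genes was slightly lower in mTOR-/- than in WT M-MDSCs, a group difference that was not tested. It was lowest in mTOR-/- replicate 3, and no single gene passed the test. By edgeR's quasi-likelihood test with Benjamini-Hochberg adjustment over all genes tested, 0 of 77 had an adjusted p under 0.05, where 4.04% of all genes tested did (2.18% higher and 1.87% lower), so none was also changed 2-fold, as 1.69% of all genes tested were, and the lowest adjusted p was 0.0783, for Mrpl28. By DESeq2, 2 of 77 passed, both lower (Mrpl28 and Mrps35), beside 9.13% of all genes by DESeq2 (5.07% higher and 4.06% lower). At an unadjusted p under 0.05, 12 of 77 or 15.6% differed (10 lower and 2 higher), beside 21.2% of all genes tested (9.52% lower and 11.7% higher), so single-gene differences were no more common among these genes than in the rest of the table. Their direction was more uneven than that of the rest of the table. In 57 of 77 genes (74.0%) the log2 fold change was below 0, as in 49.4% of all genes tested, and the median was -0.15 (quartiles -0.28 and 0.00) against 0.00 for all genes tested. These counts are given as a description, since the genes share the same 6 libraries and are not independent of each other.

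The differences were small as well as uncertain. The fitted values ran from -0.73 (Mrps35) to 0.58 (Mrps34), and for 69 of 77 genes the 95% confidence interval lay wholly within a log2 fold change of 1 in either direction, that is, within a 2-fold change. For 32 of them it lay within 0.5. The CPM of the mTOR-/- libraries lay below those of all WT libraries for 16 genes or 20.8%, beside 13.9% of all genes tested, and above them for 1 gene, Mrps5, beside 14.5%. Together these were 22.1% of the 77 genes and 28.4% of all genes tested. Without mTOR-/- replicate 1 the count of genes below all WT libraries was 25, and without mTOR-/- replicate 2 it was 29, or 32.5% and 37.7% of the 77 genes, beside 19.6% and 22% of all genes tested without the same library. Without mTOR-/- replicate 3 the share was 23.4%, beside 18.8% of all genes tested. Without WT replicates 1, 2 and 3 it was 24.7%, 29.9% and 23.4%, beside 18.6%, 19.3% and 16.7%.

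**Figure D1:**
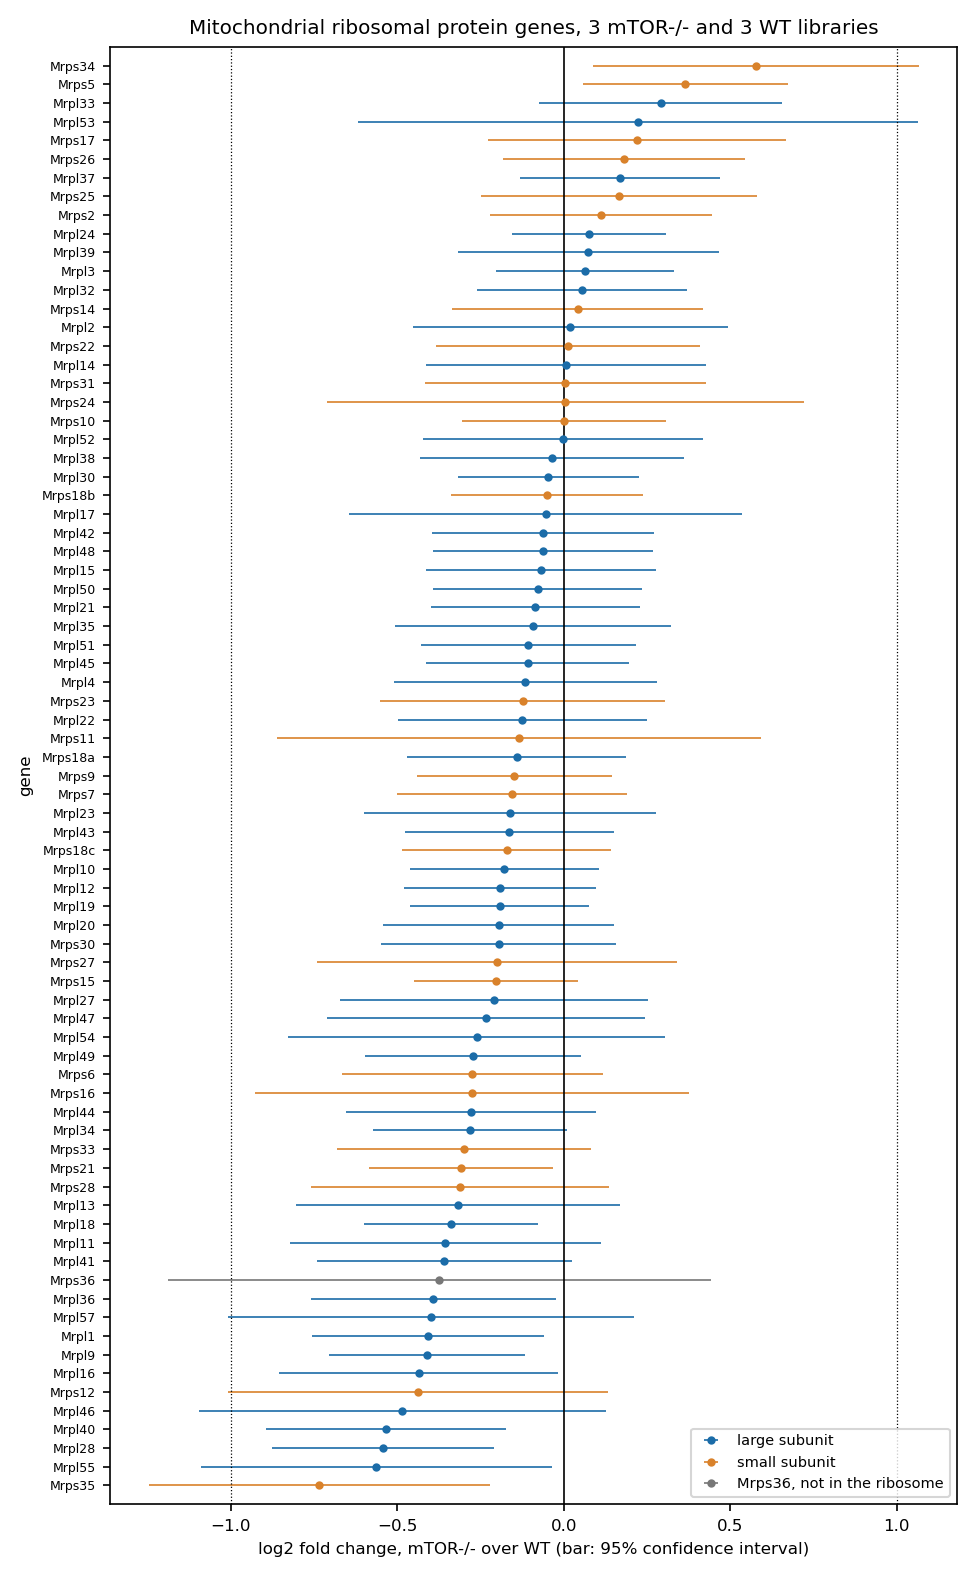
Log2 fold change (mTOR-/- over WT, horizontal axis) of each of the 77 mitochondrial ribosomal protein genes (vertical axis, in order of the value), from 3 mTOR-/- and 3 WT libraries, with points for the edgeR estimates and bars for 95% confidence intervals, coloured by ribosomal subunit. Points lie left of 0 for 57 genes, and the dotted lines mark 2-fold changes in either direction.

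Summed over the 77 genes, RNA amounted to 2142, 2214 and 1988 CPM in mTOR-/- replicates 1 to 3 and to 2327, 2242 and 2306 CPM in WT replicates 1 to 3. The mTOR-/- libraries were all below the WT libraries, with means of 2115 ± 115 and 2292 ± 44.2 CPM (SD, n = 3), a difference of -7.72%. With 3 libraries against 3, an exact permutation test of such a sum cannot go below p = 0.1, so it was not tested. The shift was not even across the mTOR-/- libraries. Relative to the WT mean of each gene, the median log2 deviation of the 77 genes was -0.07 in replicate 1, -0.04 in replicate 2 and -0.30 in replicate 3, and in WT libraries it was 0.01, -0.05 and 0.01. Replicate 3, which also had the fewest genes with a count, held the lowest value of all 6 libraries for 42 of 77 genes. Without it the median log2 fold change was -0.10 and 51 genes were below 0.

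**Figure D2:**
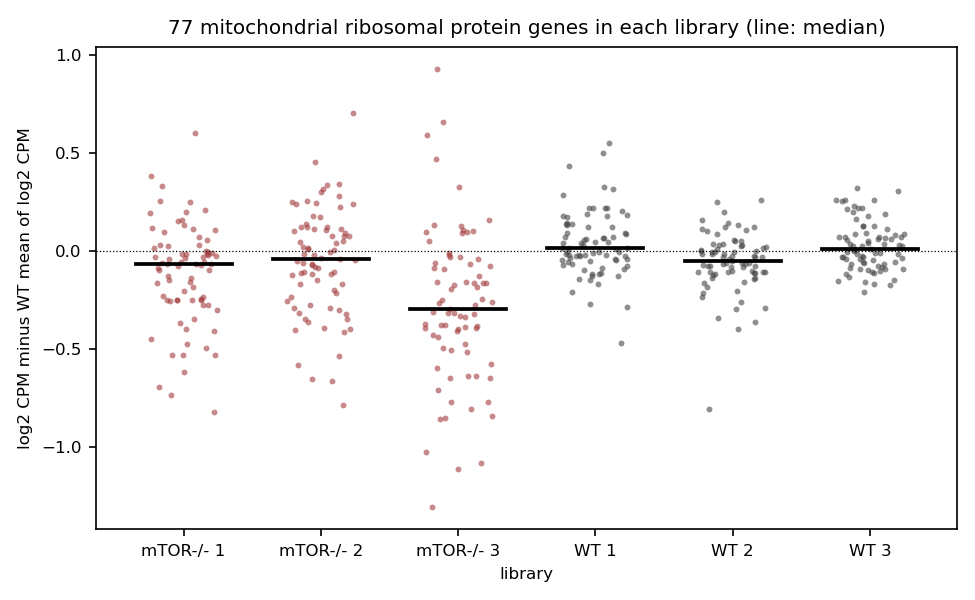
Deviation of each of the 77 genes from its WT mean (log2 CPM, vertical axis) in each of the 6 libraries (horizontal axis), with 1 point a gene and a line at the median. The medians of mTOR-/- replicates 1 and 2 lie at -0.07 and -0.04, near those of the WT libraries, and that of mTOR-/- replicate 3 at -0.30.

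By subunit, proteins of the large subunit are encoded by 50 of the 77 genes and those of the small subunit by 26. Mrps30 and Mrps18a were counted with the large subunit, where their proteins sit in spite of their names, and Mrps36, whose protein belongs to the alpha-ketoglutarate dehydrogenase complex, with neither. In the large subunit 41 genes were below 0 and 9 above, with a median log2 fold change of -0.16 and 11 genes without overlap between groups, all lower (22% of 50, beside 13.9% of all genes tested). In the small subunit 15 were below and 11 above, with a median of -0.13, 5 genes lower and 1 higher without overlap (19.2% and 3.85% of 26, beside 13.9% and 14.5%). Large-subunit genes summed to 1457, 1518 and 1336 CPM in mTOR-/- and 1608, 1554 and 1571 CPM in WT replicates 1 to 3, so the groups did not overlap (-8.92%). Small-subunit genes summed to 679, 693 and 649 CPM against 713, 684 and 729 CPM, and here mTOR-/- replicate 2 was above WT replicate 2 (-4.95%). The ratio of the large to the small sum was 2.15, 2.19 and 2.06 in mTOR-/- and 2.26, 2.27 and 2.15 in WT libraries, which overlapped. A difference between the subunits was not tested, and without mTOR-/- replicate 3 the small-subunit median was -0.022.

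Divided by ancestry, the genes were counted with no test of the difference. Of 46 genes for proteins with a bacterial counterpart, 34 were below 0, with a median of -0.17, and 11 were lower and 1 higher without overlap (23.9% and 2.17%, beside 13.9% and 14.5% of all genes tested). Of 30 genes for proteins particular to mitochondria, 22 were below 0, with a median of -0.11, and 5 were lower without overlap (16.7%, beside 13.9%). Without mTOR-/- replicate 3 the median of the latter was -0.035, and over all libraries left out in turn that of the former ran from -0.22 to -0.12. Their sums differed by -7.72% and -7.64%.

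The lowest fold change belonged to Mrps35, a small-subunit protein with no bacterial counterpart. Its RNA was at 17.5, 20.4 and 10.9 CPM in mTOR-/- replicates 1 to 3 and at 23.9, 26.8 and 30.4 CPM in WT replicates 1 to 3. The groups did not overlap, and mTOR-/- replicate 3 was the lowest, with a log2 fold change of -0.73 ± 0.23 (SE, edgeR adjusted p = 0.110). Mrpl28, a large-subunit protein with a bacterial counterpart, had 19.4, 24.7 and 20.7 CPM in mTOR-/- and 30.6, 34.2 and 29.8 CPM in WT libraries. Here the mTOR-/- libraries lay close together and every WT library was above them, with a log2 fold change of -0.54 ± 0.15 (SE, edgeR adjusted p = 0.0783). DESeq2 called both genes, at adjusted p = 0.0361 for Mrps35 and 0.0285 for Mrpl28.

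Of the other large-subunit genes at the low end, Mrpl40 had 19.1, 16.0 and 17.8 CPM in mTOR-/- and 28.8, 22.0 and 25.8 CPM in WT libraries, without overlap and at a log2 fold change of -0.53 ± 0.16 (SE, edgeR adjusted p = 0.101). Mrpl9 had 40.1, 35.8 and 32.0 CPM against 50.7, 44.2 and 48.5 CPM, again without overlap (-0.41 ± 0.13, edgeR adjusted p = 0.120). For Mrpl16 the values were 16.2, 21.2 and 13.4 CPM against 22.7, 21.9 and 24.0 CPM. The groups of Mrpl16 were separated by a narrow gap, between mTOR-/- replicate 2 and WT replicate 2 (-0.44 ± 0.19, edgeR adjusted p = 0.221). Mrpl46, which has no bacterial counterpart, had 7.34, 12.4 and 6.73 CPM against 12.3, 10.2 and 14.5 CPM, so that mTOR-/- replicate 2 was above 2 of the WT libraries (-0.48 ± 0.27, edgeR adjusted p = 0.341). Mrps12, the small-subunit protein at the decoding centre, had 16.0, 13.7 and 7.96 CPM against 19.6, 15.5 and 15.7 CPM, and overlapped by mTOR-/- replicate 1 (-0.44 ± 0.25, edgeR adjusted p = 0.358). Both genes were lowest in mTOR-/- replicate 3, without which Mrps12 stood at -0.20.

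**Figure D3:**
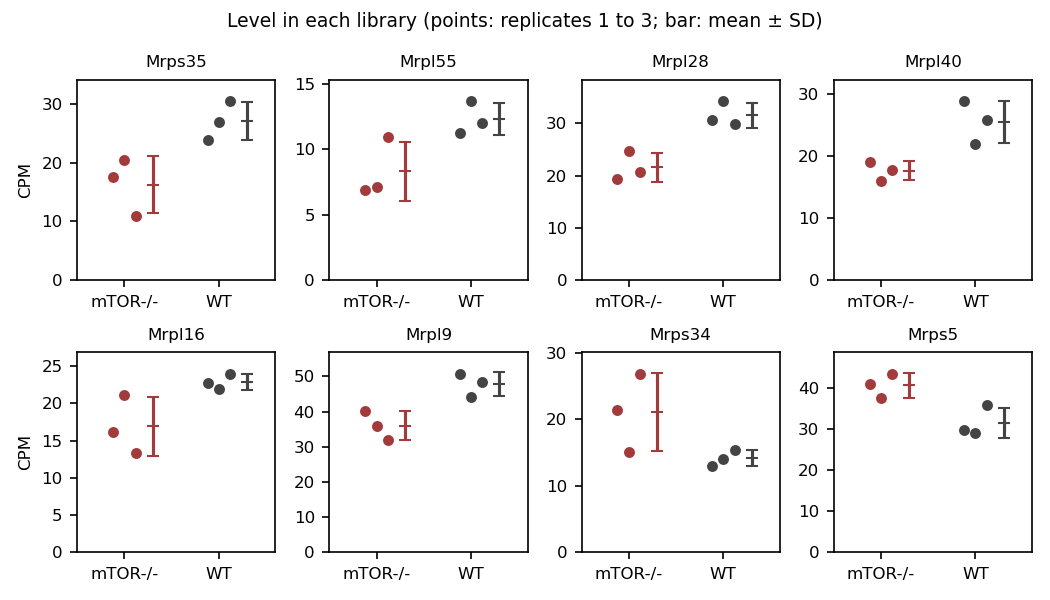
CPM (vertical axes, from 0) of 8 mitochondrial ribosomal protein genes in the 3 mTOR-/- and 3 WT libraries, with 1 point a library in order of replicate number and bars for mean ± SD. The 6 genes from Mrps35 to Mrpl9 are lower in every mTOR-/- library than in any WT library, Mrps5 is higher in every mTOR-/- library, and Mrps34 overlaps between the groups.

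Further genes with an unadjusted p under 0.05, named after their values were seen, were Mrpl1 (-0.41), Mrpl36 (-0.39), Mrpl18 (-0.34) and Mrps21 (-0.31), all lower without overlap between groups and with edgeR adjusted p values of 0.174, 0.212, 0.141 and 0.191. Mrpl18 was the most even of them, at 37.9, 36.4 and 33.4 CPM in mTOR-/- and 44.6, 46.0 and 45.4 CPM in WT libraries.

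At the other end stood Mrps34, another small-subunit protein without a bacterial counterpart. Its RNA was at 21.4, 15.1 and 26.9 CPM in mTOR-/- and at 13.0, 14.1 and 15.4 CPM in WT libraries. Replicates 1 and 3 of the mTOR-/- group were above all WT libraries and replicate 2 fell among them (log2 fold change 0.58 ± 0.22, SE, edgeR adjusted p = 0.172), and without mTOR-/- replicate 3 the value was 0.36. Mrps5, a bacterial-type protein of the small subunit, had 40.8, 37.4 and 43.4 CPM against 29.6, 29.1 and 35.7 CPM, which did not overlap (0.36 ± 0.14, edgeR adjusted p = 0.170). Mrpl33 had 53.5, 44.5 and 68.1 CPM against 41.7, 49.1 and 45.0 CPM (0.29 ± 0.16, edgeR adjusted p = 0.338), and without mTOR-/- replicate 3 its value was 0.11. Mrps17 was at 31.7, 32.0 and 52.3 CPM against 34.2, 31.6 and 33.8 CPM. Its log2 fold change of 0.22 was carried by mTOR-/- replicate 3 and was -0.067 without that library. The values of Mrpl53 (0.22), Mrps26 (0.18), Mrpl37 (0.17) and Mrps25 (0.17) were within their confidence limits of 0, and leaving out a library moved them to -0.088 for Mrpl53 and 0.067 for Mrpl37 (both without mTOR-/- replicate 2) and to 0.028 for Mrps25 (without WT replicate 2).

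The 3 genes of the Mrps18 family encode related proteins that differ in place. Mrps18c takes the place of its bacterial counterpart in the small subunit, and Mrps18b in the small and Mrps18a in the large subunit sit where bacteria have no counterpart, so these were counted as particular to mitochondria. All 3 had values near 0 that did not pass the test. Mrps18a had a log2 fold change of -0.14 (95% interval -0.47 to 0.19), Mrps18b of -0.05 (-0.34 to 0.24) and Mrps18c of -0.17 (-0.49 to 0.14).

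Levels between genes are compared per length, in the deposited FPKM (fragments scaled to gene length and library size), whose gene lengths the sources used here do not give. The mean FPKM over all 6 libraries was highest for Mrpl42 at 49.4, Mrpl34 at 39.0, Mrpl24 at 37.0, Mrpl32 at 30.7 and Mrps16 at 30.3, and lowest for Mrps36 at 1.68, Mrpl15 at 1.98 and Mrpl47 at 2.01. The 10th and 90th percentiles were 2.90 and 26.0 FPKM. This is not an order of read counts, since FPKM also divides by length. Mrpl42 and Mrpl15, at opposite ends of the range, had mean counts of 445.5 and 340. Their FPKM therefore differed mostly by the length used for scaling, and how far this holds for the other genes was not tested. The median of 8.37 FPKM was above that of all genes tested, 5.64, and below those of nuclear oxidative phosphorylation subunits (17.6), cytosolic ribosomal proteins (51.6) and proteins encoded in mitochondrial DNA (337). None of the 5 highest genes differed past the test. Their log2 fold changes were -0.06 for Mrpl42, -0.28 for Mrpl34, 0.08 for Mrpl24, 0.05 for Mrpl32 and -0.28 for Mrps16, and those of Mrps36, Mrpl15 and Mrpl47 were -0.37, -0.07 and -0.23. The signs for Mrpl42, Mrps16 and Mrpl15 turned without mTOR-/- replicate 3 (0.047, 0.0089 and 0.044), and that for Mrpl32 without mTOR-/- replicate 2 (-0.016).

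Many of these genes lie close to others in the genome, and reads may then be shared, since the strand setting of the counting was not stated. By the coordinates of the table, 44 of 77 had another expressed gene (at least 60 counts) overlapping or within 1000 bases, 24 were overlapped by such a gene, and 17 had an expressed gene on the opposite strand just before their start. In 3 cases, among 55 pairs of such a gene and a neighbour, the neighbour passed the test, beside 4.04% of all genes tested. Mrps34 (chr17:24895116-24897502, plus strand, GRCm38) lies wholly inside Mapk8ip3 on the minus strand, a gene with 27973 counts in all that was higher in mTOR-/- libraries (log2 fold change 0.77, edgeR adjusted p = 0.0161), a call lost without WT replicates 1, 2 or 3 (edgeR adjusted p = 0.0864, 0.0629 and 0.0750). The overlap covers all 2387 bases of Mrps34, and what part of the Mrps34 counts came from Mapk8ip3 was not tested. Mrpl49 starts 136 bases from Fau, which encodes a cytosolic ribosomal protein fused to a ubiquitin-like protein. Fau was lower (-0.42, edgeR adjusted p = 0.0359, and from 0.0815 to 0.178 without mTOR-/- replicate 1 or any of the WT replicates) and Mrpl49 stood at -0.27 (edgeR adjusted p = 0.313).

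The third case was Mrpl55, a large-subunit gene (chr11:59202486-59206134, plus strand, GRCm38). Its RNA was at 6.93, 7.10 and 10.9 CPM in mTOR-/- and at 11.2, 13.7 and 12.04 CPM in WT libraries, without overlap (log2 fold change -0.56 ± 0.23, SE, edgeR adjusted p = 0.210). The neighbouring gene 2610507I01Rik starts 100 bases before it on the minus strand, and had 0, 2 and 0 counts in mTOR-/- against 134, 133 and 109 counts in WT libraries (edgeR adjusted p = 0.000707). The stretch between the starts of both genes is shown because it separates one of the lowest mitochondrial ribosomal protein genes from the neighbour with the lowest adjusted p. It is given on the plus strand, 5′ to 3′, at chr11:59202386-59202485 (GRCm38.p6, RefSeq promoter sequence), with no capitals since none of the motifs searched below occurs in it.

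2610507I01Rik to Mrpl55: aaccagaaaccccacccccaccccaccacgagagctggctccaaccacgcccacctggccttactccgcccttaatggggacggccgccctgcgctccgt

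Other mitochondrial genes start close together in pairs. Mrpl46 and Mrps11 overlap by 413 bases head to head and stood at -0.48 and -0.13, the latter 0.16 without mTOR-/- replicate 3. Mrps12 starts 147 bases from Sars2, a mitochondrial seryl-tRNA synthetase, and the pair stood at -0.44 and 0.23. Mrpl43 starts 115 bases from Peo1, the helicase of mitochondrial DNA, with -0.16 and 0.30. None of these 6 values passed the test, and the differences within pairs were not tested.

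Many nuclear genes for mitochondrial proteins are known to be regulated by nuclear respiratory factor 1 (NRF1), by ETS factors such as GABP (also called NRF2) and by YY1. Sequences from 250 bases before to 50 after the gene start were found in RefSeq (GRCm38.p6) for 68 of the 77 genes, all but Mrpl4, Mrpl13, Mrpl15, Mrpl19, Mrpl38, Mrpl54, Mrps28, Mrps34 and Mrps35. They were searched on both strands for GCGCNTGCG (NRF1), CCGGAAGT (ETS) and AAGATGGCG (YY1), none of which contains another, although NRF1 matches on both strands may overlap. The NRF1 letters were in 18 of 68 promoters (26.5%, beside 15.5% of the promoters of tested genes and 7.12% of all promoters of the same length), the ETS letters in 12 (17.6%, beside 9.4% and 4.31%) and the YY1 letters in 8 (11.8%, beside 3.74% and 1.64%). At least 1 of them was in 35 promoters (51.5%, beside 25.9% and 12%). A match is a description of the sequence and not a binding site. The 35 genes with a match had a median log2 fold change of -0.11 and the 33 without had -0.20. Of the 8 genes with the lowest fold changes, 7 had a promoter sequence and 1 held a match (Mrpl9), and of the 8 with the highest, 7 had a sequence and 3 held a match (Mrpl33, Mrpl37 and Mrps26).

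The matched windows of these 4 genes and of the Mrps18 paralogs are shown to set both ends of the range side by side. Each holds 30 bases on the strand of the gene, 5′ to 3′, with the match in capitals, read as the reverse complement of the letters searched where it lies on the opposite strand, and the first is shown where matches overlap. In order of log2 fold change they lie at chr3:94443298-94443327 (plus strand), chr5:100798591-100798620 (plus), chr17:46111005-46111034 (plus), chr17:35916645-35916674 (minus), chr4:107066821-107066850 (minus), chr2:130563731-130563760 and chr2:130563746-130563775 (plus), and chr5:31613937-31613966 (plus), all GRCm38.p6.
Mrpl9, NRF1: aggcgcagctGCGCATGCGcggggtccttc
Mrps18c, ETS: cgggtcacgtgACTTCCGGcccgggaagcg
Mrps18a, YY1: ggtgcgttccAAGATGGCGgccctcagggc
Mrps18b, NRF1: aacggcccgaCGCATGCGCactgggagcac
Mrpl37, YY1: tgcacgggcaAAGATGGCGgcgtccaggta
Mrps26, ETS: gctccgcggccACTTCCGGgccgggcgcag
Mrps26, NRF1: ccgggccgggCGCAGGCGCaggcgctggct
Mrpl33, ETS: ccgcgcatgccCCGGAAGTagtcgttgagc

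The regulators themselves did not pass the test by edgeR or DESeq2, with 0 at an unadjusted p under 0.05 by edgeR. Among 8 tested regulators of nuclear-encoded mitochondrial genes, 4 were above and 4 below 0, with a median of 0.00. Those with the lowest p were the coactivator gene Pprc1 (0.27, edgeR adjusted p = 0.336), Nrf1 (-0.17, edgeR adjusted p = 0.382) and Myc (0.22, edgeR adjusted p = 0.388).

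Other groups of mitochondrial translation had medians near or above 0. The 6 mitochondrial ribosomal proteins that carry other names had a median of -0.01, with 3 above and 3 below 0 and 0 past the test. Gadd45gip1, of the large subunit, was at 13.9, 13.0 and 13.5 CPM in mTOR-/- and 20.7, 15.6 and 19.2 CPM in WT libraries, without overlap (-0.45, edgeR adjusted p = 0.168), whereas the small-subunit genes Ptcd3 and Dap3 stood at 0.32 and 0.15 (edgeR adjusted p = 0.309 and 0.490). The 11 translation factors had a median of -0.03. Mtif2, which brings the initiator tRNA to the ribosome, had 51.3, 54.9 and 53.0 CPM against 40.4, 40.1 and 42.6 CPM, without overlap (0.37, edgeR adjusted p = 0.0923). Mrrf, which recycles the ribosome, stood at -0.62 and Guf1, an elongation factor, at 0.45 (edgeR adjusted p = 0.203 and 0.212).

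Factors of ribosome assembly and ribosomal RNA modification were evenly divided, with 12 of 24 above and 12 below 0 and a median of -0.01. Gtpbp10, a GTPase of large-subunit assembly, stood at 0.44, Rbfa, of small-subunit assembly, at -0.25 and Mterf3 at 0.36 (edgeR adjusted p = 0.132, 0.203 and 0.271). Mitochondrial tRNA synthetases leaned the other way from the ribosomal proteins, with 12 of 17 above 0 and a median of 0.19. Cars2, the enzyme for cysteine, was at 25.8, 26.3 and 34.1 CPM in mTOR-/- and 21.2, 15.9 and 19.5 CPM in WT libraries, which did not overlap (0.61, edgeR adjusted p = 0.0909), and Vars2 (valine) and Aars2 (alanine) stood at 0.37 and 0.49 (edgeR adjusted p = 0.173 and 0.257). In genes for mitochondrial DNA copying, transcription and RNA handling, 12 of 14 were above 0, with a median of 0.24, among them the DNA polymerase Polg (0.48, edgeR adjusted p = 0.166), Ssbp1 (0.23) and the RNA helicase Supv3l1 (0.26). By edgeR's adjusted threshold 0 genes of these lists passed. At an unadjusted p under 0.05 there were 1 of the 6 other-named ribosomal proteins, 4 of 11 translation factors, 2 of 24 assembly factors, 2 of 17 tRNA synthetases and 1 of 14 genes of transcription and RNA handling (16.7%, 36.4%, 8.33%, 11.8% and 7.14%, beside 21.2% of all genes tested), and DESeq2 called Cars2 alone (adjusted p = 0.0338).

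The messages that the mitochondrial ribosome reads were spread widely between libraries. Summed over 13 protein genes of mitochondrial DNA, they amounted to 14537, 22383 and 12599 CPM in mTOR-/- and 8319, 16432 and 11896 CPM in WT libraries. Replicate 2 was the highest of either group, and the groups overlapped in the sum and in each of the 13 genes. Their fold changes were above 0 in 12 of 13, with a median of 0.47 that ranged from 0.13 to 0.71 when each library was left out, lowest without mTOR-/- replicate 2. Among the 13, mt-Nd4l had 1 count in mTOR-/- replicate 3 and 855 to 2709 counts in the other libraries. The gene below 0, mt-Nd6, had a mean of only 14 counts. The lowest adjusted p was that of mt-Nd2, at 197, 367 and 198 CPM against 121, 215 and 158 CPM (0.63, edgeR adjusted p = 0.220), the only one of the 13 with an unadjusted p under 0.05, and DESeq2 called 0 of them. The mitochondrial ribosomal RNAs were not analysed here.

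The families nearest in kind were lower too, with medians further from 0. Cytosolic ribosomal protein genes, numbering 84, were below 0 in 69 cases, with a median of -0.22, and 38 (45.2%) were lower without overlap, beside 13.9% of all genes tested. Of these, 7 fell past the test (beside 1.87% of all genes tested), with Rpl21 at -1.04, Rpl3 at -0.72 and Rplp0 at -0.75 (edgeR adjusted p = 0.00183, 0.00367 and 0.0217). The count of 7, where 507 were called over all genes, changed when libraries were left out, as did the calls over all genes. It was 2 without WT replicate 1 or WT replicate 3 (193 and 173 over all genes). It was 3 without mTOR-/- replicate 1 or WT replicate 2 (288 and 174 over all genes). Without mTOR-/- replicate 2 it was 12 (513 over all genes). The call of Rplp0 was lost without mTOR-/- replicate 1 (edgeR adjusted p = 0.0735) and without WT replicates 1, 2 and 3 in turn (0.0812, 0.0783 and 0.0992), and ribosomal protein genes have many processed copies among which reads can be split. Nuclear-encoded subunits of oxidative phosphorylation, numbering 79, were below 0 in 64 cases, with a median of -0.20, and 20 (25.3%) were lower without overlap, beside 13.9%. By edgeR 0 of them passed (12 lower and 2 higher at an unadjusted p under 0.05, which is 17.7% of 79 beside 21.2% of all genes tested) and by DESeq2 3 were lower and 1 higher, beside 4.06% and 5.07% of all genes. The lowest adjusted p values were those of Ndufa12 of complex I (-0.97, edgeR adjusted p = 0.0568) and of Uqcrh and Uqcrfs1 of complex III (-0.45 and -0.36, edgeR adjusted p = 0.0653 and 0.0926). Without mTOR-/- replicate 2, Ndufa12 passed at an edgeR adjusted p of 0.0263. Differences between the families were not tested.

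**Figure D4:**
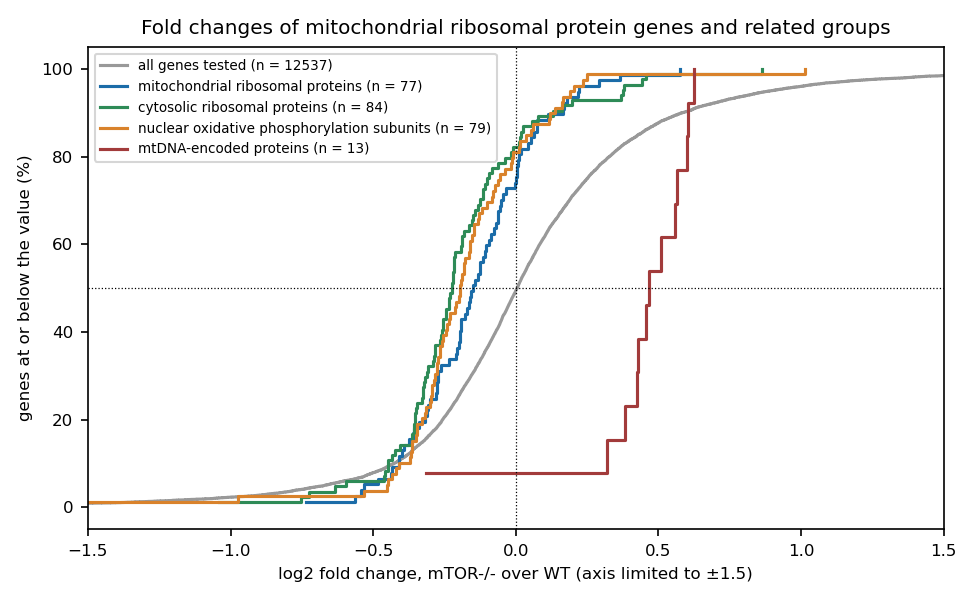
Cumulative share of genes (vertical axis, %) at or below each log2 fold change (mTOR-/- over WT, horizontal axis, limited to 1.5 in either direction) for all 12537 genes tested, the 77 mitochondrial ribosomal protein genes and related groups. The curves of mitochondrial ribosomal, cytosolic ribosomal and nuclear oxidative phosphorylation genes cross the 50% line at -0.15, -0.22 and -0.20, and that of the 13 genes of mitochondrial DNA at 0.47.

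Short genes had slightly lower fold changes in the whole table. When all genes tested were split evenly into 4 classes by the exonic length of the GENCODE M21 annotation, the median log2 fold change was -0.07 in the shortest class and 0.00, 0.03 and 0.04 in the next classes. Mitochondrial ribosomal protein genes are short, with a median of 2255 bases against 4295 for all genes tested, and 43 of the 77 were in the shortest class, where their median was -0.19. The 14, 11 and 9 genes in the longer classes had medians of -0.10, 0.05 and -0.06. What part gene length had in the values was not tested.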

How the data were processed

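The authors sequenced RNA of 6 M-MDSC libraries and deposited, for each gene, raw counts and FPKM values. Per the study's methods reads were aligned with Bowtie2 and counted with HTSeq, whereas the submitters' processing notes list HISAT2 2.0.4, StringTie 1.3.0 and the builds GRCm38.p4 and mm9. Coordinates of 58 of the 77 genes equal those of GENCODE M21 (GRCm38). The strand setting is not given in the sources used here. Further tables repeated these values in 24 columns, not used here, beside the authors' own group means, log2 ratios, p-values and q-values, likewise not used.

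Counts were tested with edgeR 4.0.16 in R 4.3.3 (TMM scaling, filterByExpr, quasi-likelihood test, group as the only term, two-sided, Benjamini-Hochberg adjustment over 12537 genes, called at an adjusted p under 0.05). Library totals ran from 12317507 to 14768126 counts, so that 3 counts corresponded to 0.203 to 0.244 CPM, and the biological coefficient of variation was 19%. CPM used the TMM-scaled totals and Python 3.11.15 handled annotation. The code was tested on simulated data. Alternatives were RLE and upper-quartile scaling, DESeq2 1.42.0, no or a stricter filter on low counts, the replicate number as a block, and leaving out each library.

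The group of genes and the lists were put forward with earlier results of these data known, although the rule for members uses names and summed counts only. Named were any gene past the threshold, the 8 lowest and 8 highest fold changes at a mean of 50 counts or more, the 5 highest and 3 lowest FPKM, the Mrps18 paralogs, those nearest the count minimum and the 3 lowest adjusted p of each related list. Other genes were named after their values were seen. With 3 libraries a group, no test for outlying samples was run.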

Additional observations from a re-analysis of the deposited data

How the results depend on the processing

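Of the mitochondrial ribosomal protein genes, 0 passed edgeR's adjusted threshold under RLE or upper-quartile scaling, without a filter, with at least 10 counts in every library, and without each library in turn, and 2 passed by DESeq2, both lower. The lowest edgeR adjusted p ranged from 0.0524 to 0.205 over these edgeR fits. Their median log2 fold change stayed below 0 throughout. With each library left out in turn it ranged from -0.20 to -0.10, the genes below 0 from 51 to 65 and those above 0 from 12 to 26. Genes lower without overlap ranged from 18 to 29, or 23.4% to 37.7%. Of all genes tested, 16.7% to 22% were lower without overlap in these fits, beside 13.9% with all libraries. Genes higher without overlap ranged from 2 to 4, and were 2 with upper-quartile scaling. At an unadjusted p under 0.05 there were 7 to 15 lower and 0 to 3 higher. For these and for genes higher without overlap, shares over all genes in these fits were not taken. The small-subunit median ranged from -0.18 to -0.022, that of assembly factors from -0.047 to 0.012 and that of mitochondrial transcription and RNA handling from 0.14 to 0.28. Of the 77 genes, 8 of those named turned sign, each only where a library was left out. Without mTOR-/- replicate 3 these were Mrps17 (-0.067), Mrps16 (0.0089), Mrpl42 (0.047), Mrpl15 (0.044) and Mrps11 (0.16), without mTOR-/- replicate 2 Mrpl53 (-0.088) and Mrpl32 (-0.016), and without WT replicate 2 Mrps18b (0.00245). Over all libraries left out in turn, Mrps17 ranged up to 0.34, Mrpl53 to 0.43 and Mrpl32 to 0.11, and down to -0.57 for Mrps16, -0.18 for Mrpl42, -0.17 for Mrpl15, -0.56 for Mrps11 and -0.096 for Mrps18b. The cause was not tested. DESeq2 called 15 cytosolic ribosomal protein genes where edgeR called 7. Over all genes, edgeR called 507, DESeq2 1144 and the fits without a library 173 to 513.

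Whether equal replicate numbers pair the libraries could not be settled. The deviations of same-numbered libraries from their group means correlated at -0.08, -0.03 and -0.06 over genes, and those of differently numbered libraries at 0.00 to 0.06. With 3 libraries a group these deviations depend on each other, so shared batches cannot be told from them. With the replicate number as a block, 279 genes were called over all and 0 of the 77 (lowest adjusted p = 0.139), their median was -0.17, and 3 cytosolic ribosomal protein genes were called in place of 7, and Fau, Csf1r and Ngp lost their calls (edgeR adjusted p = 0.128, 0.0690 and 0.0689).

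At these depths a CPM near 0.2 rests on about 3 counts, below the level of every gene named here among the 77. With 3 libraries a group, the confidence interval of the fold change reached past 2-fold for 8 of the 77 genes.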
